A study of Mus musculus with 12 samples.

Results

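T cells read antigen together with second signals from the presenting cell, and the genes described here encode those second signals and the proteins that govern them. CD80 and CD86 bind CD28, which activates T cells, and CTLA-4, which restrains them, while PD-L1 (Cd274) and PD-L2 (Pdcd1lg2) bind the inhibitory receptor PD-1. ICOS ligand (Icosl), OX40 ligand (Tnfsf4) and 4-1BB ligand (Tnfsf9) engage receptors that sustain activated T cells. CD40 is the receptor through which helper T cells license the presenting cell, and CD83 is a marker of mature dendritic cells that stabilises CD86 and MHC class II at the surface. The 9 members were taken by symbol from a table of 46072 Ensembl genes, and all 9 were found and tested in each comparison.

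RNA was sequenced from 3 myeloid cell types, 4 libraries each and 12 in all, that were grown out of marrow. The donors were C57BL/6J mice, and their ages lay between 6 and 8 weeks. Osteoclasts, multinucleated bone-resorbing cells, received RANKL (50 ng/ml) together with M-CSF (30 ng/ml). Immature dendritic cells received GM-CSF (20 ng/ml), and bone marrow macrophages received M-CSF alone (30 ng/ml). Cultures ran for 8 to 10 days in the same base medium with dialysed serum, and the osteoclast wells were treated with Accutase so that cells with 1 nucleus came off. Per the labels, each experiment took its 3 cell types from 1 mouse and used a separate marrow extraction. No T cells or stimulus were added according to the labels, and the dendritic cells are labelled immature. Whether their precursors also passed through the M-CSF expansion described for the other cultures is unclear from the labels.

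Per cell type the authors gave a mean normalised read count, and per pair of cell types a log2 fold change with its p and adjusted p. A gene counts as called where that adjusted p was under 0.05, and ± after a log2 fold change is a standard error worked back from the deposited p. For lower means, the whole reads of the 4 libraries could be recovered from the mean. These libraries carry no label, so the letters a to d rank them by size factor within a cell type and do not pair cell types. Library values exist for 8 of the 9 members in osteoclasts, 3 in dendritic cells and 7 in macrophages. Size factors ran from 0.975 to 1.04. RNA from whole cultures cannot tell apart fewer cells of a type and less RNA per cell.

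The culture names were checked against marker genes, some of which osteoclasts and dendritic cells shared. Ctsk, the collagen-degrading protease of osteoclasts, had a mean of 87805 in osteoclasts and 137 in macrophages, per the authors' deposited table, and all 8 osteoclast markers were called higher in osteoclasts than in macrophages. Against dendritic cells 5 of the 8 were called higher in osteoclasts, and 6 of the 8 were called higher in dendritic cells than in macrophages. The 3 not called between osteoclasts and dendritic cells were Dcstamp (means of 4231 in osteoclasts and 7666 in dendritic cells), Ocstamp (1589 in osteoclasts and 2583 in dendritic cells) and Atp6v0d2 (17756 in osteoclasts and 20466 in dendritic cells), per the authors' deposited table. Itgax, which encodes the dendritic cell integrin CD11c, averaged 51071 in dendritic cells and 1264 in macrophages, per the authors' deposited table, and all 8 dendritic cell markers were called higher there. Of the 8 macrophage markers, 6 were called lower in osteoclasts and 5 lower in dendritic cells than in macrophages, and osteoclasts had 2 higher and 3 lower than dendritic cells. The 8 T cell markers in the authors' deposited table summed to 112 in osteoclasts, 102 in dendritic cells and 57.3 in macrophages, and Cd3e and Cd3g were at 0 in osteoclasts and in macrophages.

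The Cd274 and Pdcd1lg2 genes lie next to each other on chromosome 19, separated by 22823 bases with 0 protein-coding genes between them. Their promoter windows are shown because these neighbours differed so widely in level, and that of Icosl because its osteoclast fold change was the furthest below 0 among the members against macrophages. Each window runs from 250 bases before to 50 after the RefSeq start on GRCm38.p6, plus strand: chr19:29367188-29367487 for Cd274, chr19:29410669-29410968 for Pdcd1lg2 and chr10:78069118-78069417 for Icosl. Capitals mark matches on either strand to the NF-kappa-B pattern GGGNNNNNCC and, in Pdcd1lg2, also to the ETS pattern GAGGAA.
Cd274: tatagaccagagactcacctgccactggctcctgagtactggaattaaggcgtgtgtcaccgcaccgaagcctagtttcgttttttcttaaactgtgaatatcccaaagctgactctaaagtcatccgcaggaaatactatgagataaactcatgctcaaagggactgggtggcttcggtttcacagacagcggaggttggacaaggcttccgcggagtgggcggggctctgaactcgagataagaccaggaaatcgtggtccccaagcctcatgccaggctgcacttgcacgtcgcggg
Pdcd1lg2: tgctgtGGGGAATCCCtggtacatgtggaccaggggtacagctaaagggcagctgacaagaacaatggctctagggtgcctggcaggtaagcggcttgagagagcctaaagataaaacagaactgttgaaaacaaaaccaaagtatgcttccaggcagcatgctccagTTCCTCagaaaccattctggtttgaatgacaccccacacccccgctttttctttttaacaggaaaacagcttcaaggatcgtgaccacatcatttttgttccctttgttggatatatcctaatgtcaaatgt
Icosl: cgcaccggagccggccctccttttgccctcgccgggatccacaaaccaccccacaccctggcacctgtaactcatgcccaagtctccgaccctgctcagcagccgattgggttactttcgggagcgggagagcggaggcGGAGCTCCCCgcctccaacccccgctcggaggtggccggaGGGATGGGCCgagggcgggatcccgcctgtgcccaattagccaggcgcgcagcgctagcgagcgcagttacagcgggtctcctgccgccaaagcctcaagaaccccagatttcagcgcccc

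RefSeq windows were matched for 4 of the 9 members, the fourth being Cd80, and those of Cd86, Cd40, Cd83, Tnfsf4 and Tnfsf9 were not used here. GGGNNNNNCC was in 3 of these 4 windows (Cd80, Pdcd1lg2 and Icosl) and in 50.8% of all 32851 windows, so it is a common string. The AP-1 pattern TGANTCA was in the Cd80 window and in 7.81% of all windows, and GAGGAA was in the Pdcd1lg2 window and in 28.3% of all windows. Neither TTCNNNGAA, the STAT pattern, nor GAAANNGAAA, an interferon response pattern, was in any of the 4 windows, and they were in 8.3% and 3.44% of all windows. These are letters in a window and show no binding.

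Of the 9 members, 6 had their highest mean in dendritic cells (Cd80, Cd86, Cd274, Pdcd1lg2, Icosl and Tnfsf4) and Cd40, Cd83 and Tnfsf9 had theirs in macrophages. Against macrophages, osteoclasts had 1 member called higher, Cd80 (14.5% of all 17822 tested genes were called higher), and 4 called lower, Cd40, Cd83, Icosl and Tnfsf9 (14.7% of all genes were called lower). Cd86, Cd274, Pdcd1lg2 and Tnfsf4 did not pass the test between osteoclasts and macrophages. Dendritic cells had 6 members called higher than macrophages (20.3% of all 20730 tested genes) and 1 called lower, Tnfsf9 (16.4% of all genes). Osteoclasts against dendritic cells gave 0 members higher by the authors' DESeq2 test (16.8% of all 21217 tested genes) and 7 lower (20.1% of all genes). At an unadjusted p under 0.05 that first count was 1, Tnfsf9. The exact permutation test on library values described below gave 0, but only 3 members could be tested that way in this comparison. For osteoclasts against macrophages the authors' unadjusted p was under 0.05 for 3 higher members (Cd80, Cd274 and Pdcd1lg2) and 4 lower. Shares of all genes at an unadjusted p were not counted. The median log2 fold change of the members was −0.60 for osteoclasts over macrophages, 1.71 for dendritic cells over macrophages and −2.51 for osteoclasts over dendritic cells, where all tested genes had −0.03, 0.05 and −0.05 for those comparisons. The split of all called genes depended on scaling: with totals made equal it was 3459 higher and 4623 lower for dendritic cells against macrophages, where the authors' scaling gave 4212 and 3396, and 5321 and 3341 for osteoclasts against dendritic cells, where it gave 3554 and 4275. With upper quartiles made equal it was 1986 and 3455 for osteoclasts against macrophages, where the authors' scaling gave 2593 and 2623. Any pair of the 3 comparisons shares the libraries of 1 cell type.

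**Figure D1:**
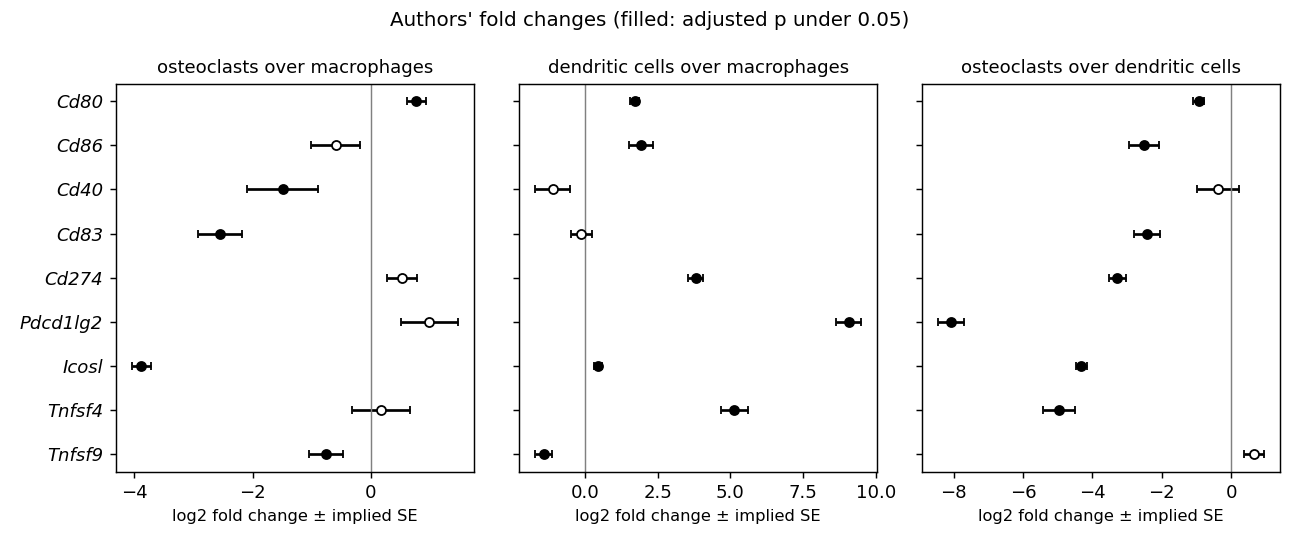
The authors' log2 fold change of each member (x axis, ± the implied standard error) for osteoclasts over macrophages, dendritic cells over macrophages and osteoclasts over dendritic cells, with filled points where the adjusted p was under 0.05. Pdcd1lg2 lies furthest from 0 in the 2 panels that hold dendritic cells, and Icosl in the panel of osteoclasts over macrophages.

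Cd80 (ENSMUSG00000075122, chromosome 16, 38455561 to 38496335 in GRCm38) was the member called higher in osteoclasts than in macrophages. The osteoclast libraries a to d held 1134, 844.1, 849.5 and 767.8 normalised reads, and the macrophage libraries held 543.5, 440.4, 577.5 and 542.6. Every osteoclast library lay above every macrophage library, and the means were 899 ± 161 in osteoclasts and 526 ± 59.3 in macrophages (SD, n = 4 each). The log2 fold change was 0.77 ± 0.16 (adjusted p = 2.95e-05), or 1.70-fold, in the authors' deposited table.

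Dendritic cells had more Cd80 than either of the other cell types. Their mean was 1729 in the authors' deposited table, with a log2 fold change of 1.71 ± 0.16 over macrophages (adjusted p = 2.54e-24). Osteoclasts fell by 0.94 ± 0.16 on the log2 scale against dendritic cells (adjusted p = 5.12e-08) in the authors' deposited table. The order dendritic cells, osteoclasts, macrophages was therefore called at each step.

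Cd86 (ENSMUSG00000022901, chromosome 16, 36603869 to 36666081, minus strand) encodes the partner of CD80 at CD28 and lies on the same chromosome, with 25 protein-coding genes between the pair. The mean was 262 in osteoclasts, 1606 in dendritic cells and 404 in macrophages, per the authors' deposited table. Dendritic cells were higher than macrophages by 1.92 ± 0.42 on the log2 scale (adjusted p = 2.8e-05) in the authors' deposited table. Cd86 in osteoclasts fell by 2.51 ± 0.42 against dendritic cells (adjusted p = 1.93e-08) in the authors' deposited table, so the CD86 transcript separated osteoclasts from dendritic cells more widely than the CD80 transcript, a difference between genes that was not itself tested.

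Between osteoclasts and macrophages Cd86 was not called. Osteoclast libraries a to d held 361.7, 278.4, 211.6 and 197.7 normalised reads, and macrophage libraries held 222.1, 309.9, 230.8 and 851.3. Macrophage library d stood far above the others, and the remaining macrophage libraries lay within the osteoclast range. The log2 fold change was −0.60 ± 0.42 (adjusted p = 0.311, 95% interval −1.42 to 0.23) in the authors' deposited table. Without macrophage library d the macrophage mean was 254, the log2 ratio of osteoclasts to macrophages moved to 0.05 where all libraries gave −0.62, and the ratio of dendritic cells to macrophages was 6.32 where all libraries gave 3.98.

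Macrophage libraries also differed in dendritic cell genes. The 6 dendritic cell markers with library values summed to 212, 1198, 270 and 840 normalised reads in macrophage libraries a to d. The sum was therefore high in libraries b and d, and most of it there was 1 class II gene, H2-Ab1. H2-Ab1 held 120.9, 1097, 142.2 and 591.5 in libraries a to d. Irf4 held 70.76, 85.75, 112 and 224.3, and Zbtb46 held 17.69, 11.69, 14.61 and 23.01, so library b was not high for either. Flt3, Dpp4 and Ccr7 held at most 1 read per macrophage library. Cd86 was also highest in library d (851.3) and next highest in b (309.9), where a held 222.1 and c held 230.8. Library b was far closer to a and c than to d. The part of such RNA in the Cd86 value was not tested.

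To set different genes side by side, means were divided by the length of all annotated exons of a gene. That length need not be the length of the transcripts present, so such ratios, shares and ranks are approximate. Per kilobase of exon, Cd80 exceeded Cd86 3.39-fold in osteoclasts, 1.06-fold in dendritic cells and 1.29-fold in macrophages. By library the log2 ratio of Cd80 to Cd86 was 1.63, 1.58, 1.99 and 1.94 in osteoclasts and 1.27, 0.49, 1.31 and −0.67 in macrophages. All osteoclast libraries lay above all macrophage libraries. Macrophage library d had the lowest ratio, so setting it aside could not change that order. The difference in this ratio was not tested.

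**Figure D2:**
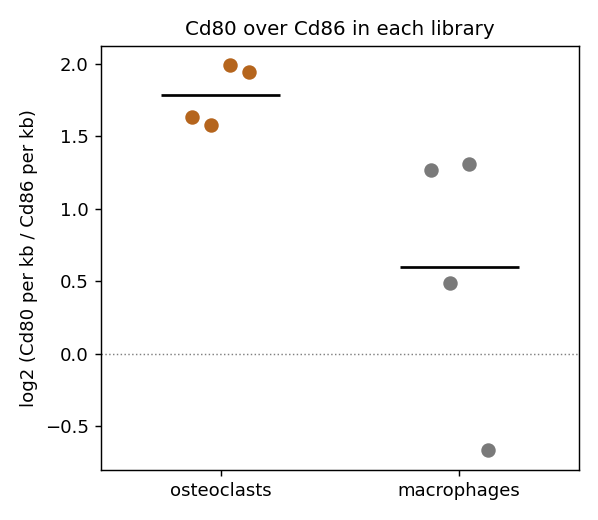
Log2 ratio of Cd80 to Cd86, each per kilobase of exon (y axis), in the 4 recovered osteoclast libraries and the 4 recovered macrophage libraries, with a bar at the group mean and a dotted line at equal levels. The lowest osteoclast library, 1.58, lies above the highest macrophage library, 1.31.

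The PD-1 ligands were the most abundant class in dendritic cells. Cd274 (ENSMUSG00000016496, chromosome 19, 29367455 to 29388095), which encodes PD-L1, had a mean of 1174 in osteoclasts, 11758 in dendritic cells and 812 in macrophages, per the authors' deposited table. Dendritic cells exceeded macrophages by 3.80 ± 0.25 on the log2 scale (adjusted p = 3.44e-49), or 14-fold, in the authors' deposited table. Osteoclasts fell by 3.28 ± 0.25 against dendritic cells (adjusted p = 8.76e-37) in the authors' deposited table.

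Cd274 did not pass the test between osteoclasts and macrophages. Macrophage libraries a to d held 619.2, 864.3, 717.7 and 1045 normalised reads, with a mean of 812 ± 185 (SD, n = 4), and osteoclast libraries could not be recovered at that level. The log2 fold change of 0.52 ± 0.25 had an adjusted p of 0.108 and a 95% interval from 0.03 to 1.02 that does not allow for the number of genes, per the authors' deposited table. An antisense gene, AC119228.1, overlaps a Cd274 exon in GENCODE M21, and the strand setting of the counting is not given in the sources used.

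Pdcd1lg2 (ENSMUSG00000016498, chromosome 19, 29410919 to 29471161), which encodes PD-L2, had few reads outside dendritic cells. Osteoclast libraries a to d held 8, 3, 12 and 9 reads (32 in all) and macrophage libraries held 2, 2, 5 and 6 reads (15 in all), and the ranges overlap. The dendritic cell mean was 2483 in the authors' deposited table, against 7.98 in osteoclasts and 3.63 in macrophages. Dendritic cells exceeded macrophages by 9.07 ± 0.42 on the log2 scale (adjusted p = 6.12e-99), and osteoclasts fell by 8.08 ± 0.36 against dendritic cells (adjusted p = 9.22e-107), in the authors' deposited table. Osteoclasts against macrophages gave 0.99 ± 0.48 (adjusted p = 0.109) in the authors' deposited table.

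The balance between the PD-1 ligands therefore differed in size between the cultures. Per kilobase of exon, Cd274 exceeded Pdcd1lg2 79.6-fold in osteoclasts, 2.56-fold in dendritic cells and 121-fold in macrophages. The osteoclast and macrophage ratios rest on the 32 and 15 Pdcd1lg2 reads given above and were not compared by a test.

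Icosl (ENSMUSG00000000732, chromosome 10, 78069302 to 78083913), whose product engages ICOS on activated T cells, was far lower in osteoclasts than in either of the other cultures. Osteoclast libraries a to d held 84.64, 61.08, 87.43 and 57.61 normalised reads, a mean of 72.7 ± 15.5 (SD, n = 4). The mean was 1475 in dendritic cells and 1087 in macrophages, per the authors' deposited table, neither of which could be divided by library. Osteoclasts fell by 3.88 ± 0.16 against macrophages (adjusted p = 1.74e-124), or 14.7-fold, in the authors' deposited table. They fell by 4.32 ± 0.16 against dendritic cells (adjusted p = 6.33e-156), or 19.9-fold, in the authors' deposited table. Dendritic cells were higher than macrophages by 0.44 ± 0.14 (adjusted p = 0.0058) in the authors' deposited table, a call lost when the totals of the cell types were made equal, which gave 0.29.

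**Figure D3:**
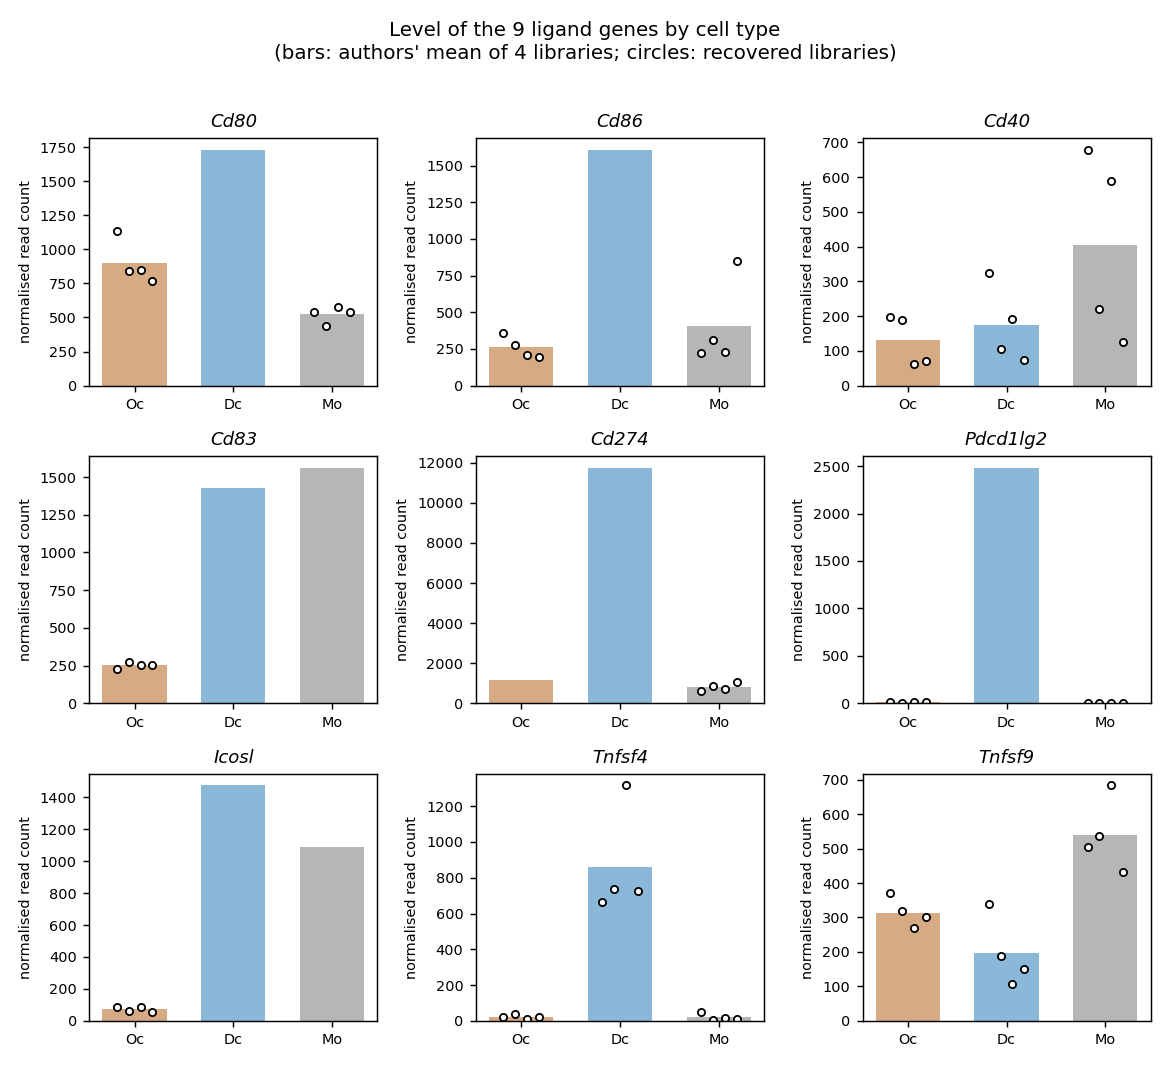
Normalised read count of each member (y axis, a scale per panel) in osteoclasts (Oc), dendritic cells (Dc) and macrophages (Mo), with bars at the authors' mean of 4 libraries and circles at recovered libraries a to d from left to right. Cd86 shows macrophage library d at 851.3, and Tnfsf4 shows dendritic cell library c at 1317.

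The TNF superfamily ligands went opposite ways in dendritic cells. Tnfsf4 (ENSMUSG00000026700, chromosome 1, 161395409 to 161418410), which encodes OX40 ligand, held 665.6, 738, 1317 and 727.5 normalised reads in dendritic cell libraries a to d. Osteoclast libraries held 21.16, 41.05, 10.93 and 19.87, and macrophage libraries held 47.17, 5.847, 18.5 and 10.54. Dendritic cells lay above both others without overlap, while the osteoclast and macrophage ranges overlapped.

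The Tnfsf4 difference of dendritic cells over macrophages was 5.14 ± 0.47 on the log2 scale (adjusted p = 1.76e-26) in the authors' deposited table. Osteoclasts fell by 4.97 ± 0.47 against dendritic cells (adjusted p = 5.97e-25), and osteoclasts over macrophages gave 0.17 ± 0.49 (adjusted p = 0.85), in the authors' deposited table. Macrophage library a carried much of its group's mean: without it the mean was 11.6 where all libraries gave 20.5, and the ratio of dendritic cells to macrophages was 74.1 where all libraries gave 42.0. The log2 ratio of osteoclasts to macrophages was then 1.00 where all libraries gave 0.18, and it was below 0 when osteoclast library b (−0.25), macrophage library b (−0.13) or macrophage library d (−0.04) was left out.

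Tnfsf9 (ENSMUSG00000035678, chromosome 17, 57105325 to 57107757), which encodes 4-1BB ligand, was highest in macrophages. Osteoclast libraries a to d held 369.8, 318.4, 269.3 and 300 normalised reads, dendritic cell libraries held 340.5, 187.8, 107.9 and 149.6, and macrophage libraries held 503.2, 535.9, 683.7 and 431.4. All macrophage libraries exceeded all osteoclast and all dendritic cell libraries, and dendritic cell library a reached into the osteoclast range. The means were 314 ± 42.2 in osteoclasts, 196 ± 101 in dendritic cells and 539 ± 106 in macrophages (SD, n = 4 each).

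For Tnfsf9 the log2 fold change was −0.76 ± 0.29 in osteoclasts over macrophages (adjusted p = 0.0304) and −1.43 ± 0.29 in dendritic cells over macrophages (adjusted p = 4.86e-06), in the authors' deposited table. Osteoclasts over dendritic cells gave 0.67 ± 0.29 (adjusted p = 0.0573), not called, in the authors' deposited table. That comparison was called when totals were made equal (0.86) and when only genes with a mean of at least 10 were tested. Gm11110, a lincRNA gene on the opposite strand, overlaps a Tnfsf9 exon and had means of 101 in osteoclasts, 178 in dendritic cells and 128 in macrophages, per the authors' deposited table, and without a stated strand setting reads of the pair cannot be told apart.

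Cd40 (ENSMUSG00000017652, chromosome 2, 165055627 to 165072948) varied several-fold between libraries within each cell type. Osteoclast libraries a to d held 198.5, 189.2, 62.59 and 69.53 normalised reads, dendritic cell libraries held 325.1, 104.1, 192.4 and 73.26, and macrophage libraries held 678.1, 219.2, 590.2 and 125.6. The ranges of all 3 cell types overlapped. In macrophages libraries a and c were high for Cd40, and these were the ones low for the dendritic cell marker sum given above. That sum was mostly H2-Ab1 in libraries b and d, and Irf4 and Zbtb46 did not follow the same split.

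The Cd40 call against macrophages was a narrow one. Osteoclasts fell by 1.49 ± 0.61 on the log2 scale (adjusted p = 0.0478) in the authors' deposited table, and the exact two-sided permutation test on the library values gave p = 0.114. The call was lost with the totals made equal, with every gene that had a p-value in the adjustment, and at an adjusted p under 0.01. Dendritic cells over macrophages gave −1.11 ± 0.61 (adjusted p = 0.147) and osteoclasts over dendritic cells −0.38 ± 0.61 (adjusted p = 0.686, 95% interval −1.57 to 0.81), neither called, in the authors' deposited table.

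Cd83 (ENSMUSG00000015396, chromosome 13, 43784775 to 43803132) was low in osteoclasts and did not separate dendritic cells from macrophages. Osteoclast libraries a to d held 226.7, 273.3, 254.4 and 252.3 normalised reads, the tightest set of any member with library values. The mean was 252 in osteoclasts, 1428 in dendritic cells and 1563 in macrophages, per the authors' deposited table. Osteoclasts fell by 2.55 ± 0.37 against macrophages (adjusted p = 2.71e-10) and by 2.43 ± 0.37 against dendritic cells (adjusted p = 8.62e-10), in the authors' deposited table. Dendritic cells over macrophages gave −0.13 ± 0.37 (adjusted p = 0.845, 95% interval −0.85 to 0.60) in the authors' deposited table.

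The library values allowed 12 exact two-sided permutation tests on members, for 6 members between osteoclasts and macrophages and 3 in each comparison with dendritic cells. In total 5 reached 0.0286, the smallest p that 4 libraries against 4 can give: Cd80 and Tnfsf9 for osteoclasts against macrophages, Tnfsf4 and Tnfsf9 for dendritic cells against macrophages, and Tnfsf4 for osteoclasts against dendritic cells. Adjusted over the 37389 tests of all recovered genes and pairs, the smallest value was 0.0902, so 0 of them passed 0.05. Tests at the smallest possible p all share that adjusted value, so the 0 says nothing about the members. Among all recovered genes, 13.7% had every osteoclast library above every macrophage library and 11.5% had every one below, against 1 and 1 of these 6 members. Dendritic cells lay wholly above macrophages for 19.4% of recovered genes and wholly below for 12.8%, against 1 and 1 of 3 members. Osteoclasts lay wholly above dendritic cells for 15.1% and wholly below for 22.2%, against 0 and 1 of 3 members.

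Expressed per kilobase of exon and summed, the ligand set amounted to 1051 in osteoclasts, 6964 in dendritic cells and 1868 in macrophages. Dendritic cells thus had 3.73 times the macrophage sum, and osteoclasts 0.562 times it. PD-1 ligands made up 31.2% of the sum in osteoclasts, 64.8% in dendritic cells and 12.1% in macrophages, and nearly all of it was Cd274 in osteoclasts and macrophages. CD28 and CTLA-4 ligands made up 29.9% in osteoclasts, 13% in dendritic cells and 13.5% in macrophages. Icosl made up 1.5% in osteoclasts, 4.58% in dendritic cells and 12.6% in macrophages, and Cd83 made up 9.31% in osteoclasts, 7.97% in dendritic cells and 32.5% in macrophages.

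The leading member per kilobase was Cd274 in osteoclasts and in dendritic cells and Cd83 in macrophages. In osteoclasts the next were Tnfsf9 at 244 and Cd80 at 243 per kilobase, which is too close to rank. TNF superfamily ligands made up 24.4% of the sum in osteoclasts, 8.91% in dendritic cells and 22.9% in macrophages, almost wholly Tnfsf9 outside dendritic cells. These shares describe the authors' means and were not tested.

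**Figure D4:**
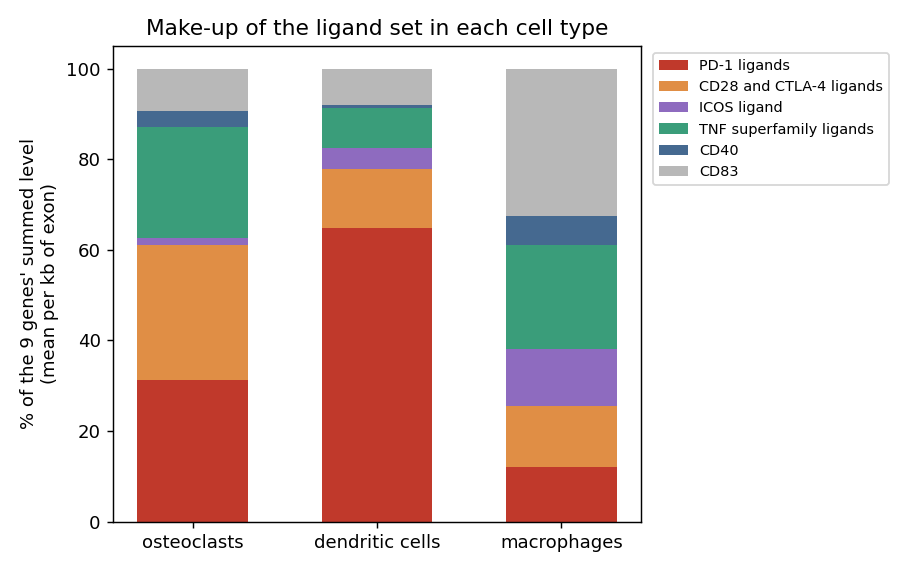
Share of the summed level per kilobase of exon (y axis, %) that each class of ligand contributed in osteoclasts, dendritic cells and macrophages, from the authors' means. PD-1 ligands hold 64.8% in dendritic cells, and CD83 holds 32.5% in macrophages.

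Other genes of the same families and pathways were counted from lists, beside the shares of all tested genes given above: 14.5% higher and 14.7% lower for osteoclasts against macrophages, 20.3% and 16.4% for dendritic cells against macrophages, and 16.8% and 20.1% for osteoclasts against dendritic cells. Of the other TNF superfamily ligands, 1 of 8 tested was higher and 4 lower in osteoclasts than in macrophages, with a median log2 fold change of −0.76. Tnfsf8, the CD30 ligand, had a mean of 16.4 in osteoclasts, 3888 in dendritic cells and 245 in macrophages, per the authors' deposited table, and Tnfsf15, a ligand of death receptor 3, had 40 in osteoclasts, 1379 in dendritic cells and 9.48 in macrophages. Tnfsf15 rose in osteoclasts against macrophages by 1.96 ± 0.42 (adjusted p = 3.47e-05) while Tnfsf8 fell by 3.71 ± 0.41 (adjusted p = 2.91e-17), in the authors' deposited table. Dendritic cells had 6 of the 8 higher than macrophages and 0 lower, with a median of 2.15, and osteoclasts had 0 higher and 8 lower than dendritic cells, with a median of −2.98.

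The other B7 and butyrophilin ligands were called about as often as all genes in the comparisons with macrophages. Osteoclasts against macrophages had 1 of 7 higher and 1 lower, dendritic cells against macrophages 1 of 8 higher and 2 lower, and osteoclasts against dendritic cells 0 of 8 higher and 1 lower. Vsir, which encodes the inhibitory ligand VISTA, was abundant in every culture, with means of 7241 in osteoclasts, 8486 in dendritic cells and 14203 in macrophages, per the authors' deposited table. It fell in osteoclasts by 0.96 ± 0.26 (adjusted p = 0.00139) and in dendritic cells by 0.73 ± 0.26 (adjusted p = 0.0146) against macrophages in the authors' deposited table. Nectin2, a ligand of CD226 and TIGIT, rose in both, by 0.66 ± 0.18 in osteoclasts (adjusted p = 0.00142) and 1.41 ± 0.18 in dendritic cells (adjusted p = 3.49e-14), in the authors' deposited table.

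Among 10 adhesion and other inhibitory ligands, 3 were higher and 2 lower in osteoclasts than in macrophages, 5 higher and 1 lower in dendritic cells than in macrophages, and 1 higher and 4 lower in osteoclasts than in dendritic cells. Among all genes, 14.5% were higher and 14.7% lower in osteoclasts than in macrophages. With 10 genes such counts are small, and nothing is read from them about the list. Cd200, whose product restrains myeloid cells through its receptor, was the 1 higher in osteoclasts than in dendritic cells, with means of 1732 in osteoclasts, 514 in dendritic cells and 106 in macrophages, per the authors' deposited table. It rose by 3.85 ± 0.44 in osteoclasts against macrophages (adjusted p = 3.03e-16), per the authors' deposited table. Icam1, the ligand of the integrin LFA-1, rose by 0.76 ± 0.14 (adjusted p = 2.22e-06), and Lgals9, a galectin that binds TIM-3, fell by 1.35 ± 0.23 (adjusted p = 1.56e-07), in osteoclasts against macrophages in the authors' deposited table. Arg1, an arginine-degrading enzyme that limits T cells, had a mean of 68.2 in osteoclasts, 41909 in dendritic cells and 51.6 in macrophages, per the authors' deposited table.

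Some receptors that T cells use for these ligands were also transcribed in the cultures, and others were at or near 0. Pdcd1, which encodes PD-1, had a mean of 0 in osteoclasts, 17.4 in dendritic cells and 0 in macrophages. Ctla4 had 0 in osteoclasts, 0.51 in dendritic cells and 0.24 in macrophages, per the authors' deposited table. Cd28 had a mean of 637 in osteoclasts, 206 in dendritic cells and 2500 in macrophages, per the authors' deposited table, and it fell by 1.93 ± 0.31 in osteoclasts against macrophages (adjusted p = 1.34e-08), and dendritic cells gave a log2 fold change of −3.52 ± 0.31 over macrophages (adjusted p = 1.1e-27). Tnfrsf9, the 4-1BB receptor for the product of Tnfsf9, had a mean of 477 in osteoclasts, 17091 in dendritic cells and 23.6 in macrophages, per the authors' deposited table. It rose by 3.95 ± 0.57 in osteoclasts (adjusted p = 1.12e-10) and by 8.77 ± 0.57 in dendritic cells (adjusted p = 3.25e-52) against macrophages in the authors' deposited table, where its ligand gene fell in both. Of the 6 T cell markers tested, 2 were called higher in osteoclasts than in macrophages (Cd2 and Cd5), 2 higher in dendritic cells than in macrophages (Cd2 and Cd8a), and none lower in either. Cd2 had means of 23.5 in osteoclasts, 56.6 in dendritic cells and 10.7 in macrophages, per the authors' deposited table. Cd5 had 67.9 in osteoclasts, 11.5 in dendritic cells and 14.4 in macrophages, and Cd8a had 0.751 in osteoclasts, 9.70 in dendritic cells and 0.731 in macrophages, per the authors' deposited table. By library the sum of all 8 T cell markers ran from 95.4 to 132 in osteoclasts, from 83.7 to 117 in dendritic cells and from 32.4 to 80.9 in macrophages. The part of T cell RNA in the receptor values was not tested. Of the list, 1 of 9 tested was higher and 1 lower in osteoclasts than in macrophages, 5 of 9 higher and 2 lower in dendritic cells than in macrophages, and 1 of 10 higher and 6 lower in osteoclasts than in dendritic cells.

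Many genes of the CD40 signalling and NF-kappa-B list were called higher in osteoclasts and in dendritic cells than in macrophages. Cd40 itself was called lower in osteoclasts, narrowly, and was not called in dendritic cells. The list is not limited to CD40, and the part of RANKL, added to the osteoclasts only, was not tested. In osteoclasts 9 of 15 were higher and 0 lower than in macrophages, with a median log2 fold change of 0.80, and in dendritic cells 13 of 15 were higher and 0 lower, with a median of 0.83. Traf1, an adaptor induced by NF-kappa-B, had a mean of 4986 in osteoclasts, 1999 in dendritic cells and 436 in macrophages, per the authors' deposited table. Traf3, an adaptor that restrains the alternative NF-kappa-B pathway, rose in osteoclasts by 1.31 ± 0.13 against macrophages (adjusted p = 2.66e-22) and by 1.45 ± 0.13 against dendritic cells (adjusted p = 8.5e-28), in the authors' deposited table. Osteoclasts against dendritic cells had 5 of 15 higher and 6 lower.

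Most dendritic cell maturation genes were called higher in the dendritic cells, which are labelled immature. Of 15, 13 were higher and 0 lower than in macrophages, with a median log2 fold change of 4.77, and in osteoclasts 1 was higher and 13 lower than in dendritic cells, with a median of −5.47. Osteoclasts against macrophages had 4 higher and 3 lower. Ccl17, a chemokine for CCR4-bearing T cells, had a mean of 64.2 in osteoclasts, 69230 in dendritic cells and 64.9 in macrophages, per the authors' deposited table. Socs2, a cytokine signalling inhibitor, had a mean of 18 in osteoclasts, 3419 in dendritic cells and 9.94 in macrophages, per the authors' deposited table.

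March1 encodes the ubiquitin ligase that removes CD86 and MHC class II from the surface, the step that CD83 opposes. Its mean was 346 in osteoclasts, 4661 in dendritic cells and 1924 in macrophages, per the authors' deposited table. It fell in osteoclasts by 2.41 ± 0.34 against macrophages (adjusted p = 7.04e-11) and by 3.65 ± 0.34 against dendritic cells (adjusted p = 4.21e-25), per the authors' deposited table. The list named surface turnover of CD86 and MHC class II has 8 genes: March1, March8 and otherwise genes of class II presentation and its control. Its counts therefore describe mostly class II genes. Osteoclasts had 0 higher and 2 lower than macrophages, and 0 higher and 7 lower than dendritic cells. Dendritic cells had 7 higher and 1 lower than macrophages. March1 rose there by 1.24 ± 0.34 (adjusted p = 0.00111) in the authors' deposited table. The 1 lower in dendritic cells was March8, a related ligase, by a log2 fold change of −0.37 ± 0.08 (adjusted p = 4.79e-06) in the authors' deposited table. H2-Eb1, a class II chain, rose in dendritic cells by 6.41 ± 0.56 against macrophages (adjusted p = 2.14e-28) in the authors' deposited table.

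**Figure D5:**
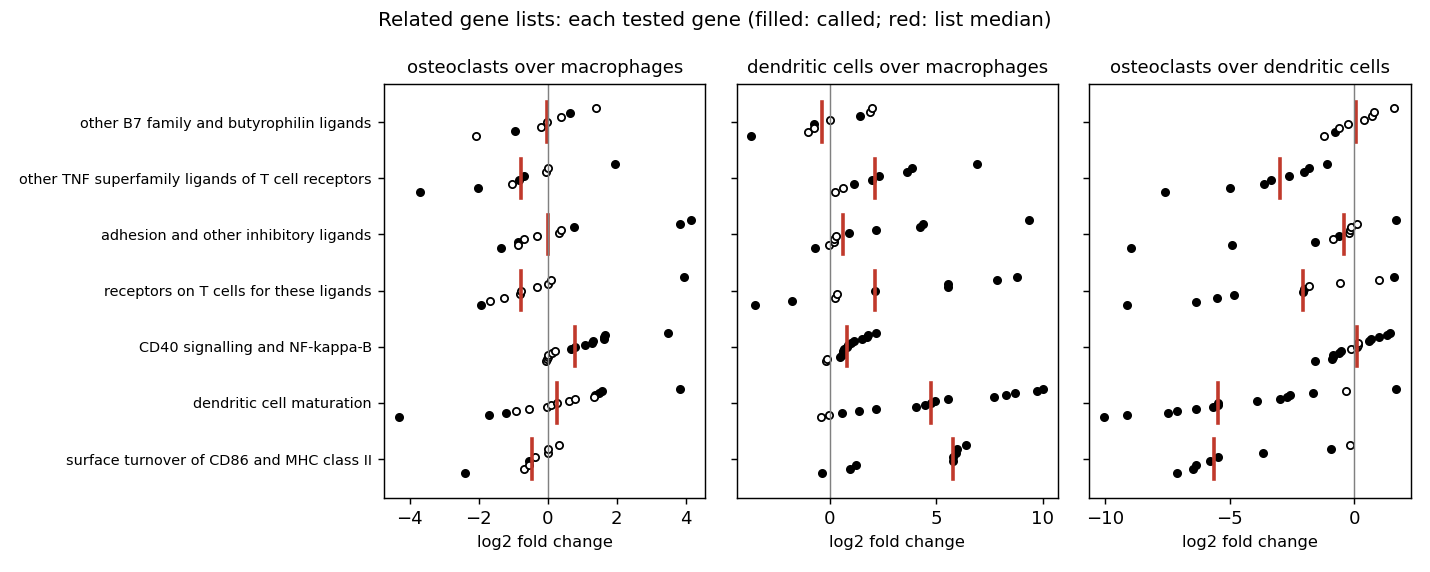
Log2 fold change (x axis) of each tested gene in 7 lists of related genes, for osteoclasts over macrophages, dendritic cells over macrophages and osteoclasts over dendritic cells, with filled points where the adjusted p was under 0.05 and a red bar at the list median. The medians of the maturation list are 0.28, 4.77 and −5.47 in that order.

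Some members had close neighbours in pattern over the 3 cell types, measured as the distance between centred log2(mean + 1) profiles among 10457 genes. Genes near Cd86 were Phgdh (0.064) and Tcaf1 (0.076). Nearest to Cd274 were Phlda1 (0.055), Mmp12 (0.13) and Mtmr7 (0.16). Dhrs3 (0.018) was nearest to Cd40, Pf4 (0.13) to Cd83 and Tmem9 (0.023) to Tnfsf9. With 3 points per profile, such likeness is a description of the means only.

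Neutrophil markers and mast cell and basophil markers summed higher in the dendritic cell cultures, beside the higher ligand values there. NK cell markers summed to 56.4 in dendritic cells and 4.63 in macrophages, and stromal cell markers to 84.9 and 25.8. B cell markers went the other way, at 20.7 in dendritic cells and 50.1 in macrophages, as did plasmacytoid dendritic cell markers, at 2967 and 6100. The 8 neutrophil markers summed to 77.6 in osteoclasts, 14582 in dendritic cells and 92.0 in macrophages, per the authors' deposited table, with Elane at 0 in osteoclasts and Camp and Ly6g at 0 in macrophages. The 7 mast cell and basophil markers summed to 12.5 in osteoclasts, 801 in dendritic cells and 8.03 in macrophages, per the authors' deposited table, with Mcpt8 and Prss34 at 0 in osteoclasts and in macrophages, and Ms4a2 and Fcer1a at 0 in osteoclasts as well. By library the mast cell and basophil sum ran from 625 to 1156 in dendritic cells, from 8.06 to 17.0 in osteoclasts and from 4.87 to 9.83 in macrophages. The 4 neutrophil markers with library values in dendritic cells summed to between 159 and 637, and all 8 ran from 63.1 to 106 in osteoclasts and from 32.6 to 150.0 in macrophages. The part of such other cells in the dendritic cell values of the ligands was not tested.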

How the data were processed

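The deposited table holds, per the file headers, the authors' means of normalised counts (a signal without a column per library), log2 fold changes, p-values and adjusted p-values for each pair of 3 cell types, 4 libraries each. Per the labels' protocols a stranded mRNA kit was used, and per the series' design text single reads of 50 bases were taken in 1 lane. The build GRCm38 and the tools DESeq2 2.13, Cufflinks 2.1.1, TopHat2, Bowtie2 and bcl2fastq are named by the submitters' processing notes. Their roles, the annotation and the strand setting are not given in the sources used.

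Calls are the authors' own. A planned edgeR or DESeq2 test on counts could not be run, since the table has no column per library. The standard error was worked back from the deposited log2 fold change and p-value, read as a two-sided normal test, which is an inference. The log2 fold change of dendritic cells over macrophages was deposited with the opposite sign and turned. For low genes the deposited fold change is smaller than the deposited means give.

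The authors' means sum to 2.42e+07 in osteoclasts, 2.77e+07 in dendritic cells and 2.50e+07 in macrophages. Whole reads per library were solved from the means up to 1000, and kept where 1 solution existed: 100% of genes up to a mean of 500, and between 500 and 1000 100% in osteoclasts, 99.9% in dendritic cells and 94.2% in macrophages. The solving was tested on simulated data. Over 18 pairs of libraries of 1 cell type, the median chi-square per gene was 1.66 to 5.34, where counting noise gives 0.455, so no pair was a repeat. Library values measure spread between marrow extractions of 4 mice.

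Symbols matched 45138 identifiers and 934 had none. Gene coordinates and exon lengths are from GENCODE M21 on GRCm38, and promoter windows from RefSeq on GRCm38.p6. Members and lists were chosen with earlier results of these data known. Named genes are every member, of each list the 2 called genes with the smallest p per direction and comparison, the 3 nearest in pattern (1 is not reported here), and 2 markers per list. Those outside this rule were chosen after their values were seen: Cd3e, Cd3g, Camp, Ly6g, Elane, Mcpt8, Prss34, Ms4a2 and Fcer1a as markers at 0, Cd2, Cd5 and Cd8a as called T cell markers, Dcstamp, Ocstamp and Atp6v0d2 as osteoclast markers shared with dendritic cells, and AC119228.1 and Gm11110 as overlapping genes. Pdcd1 and Ctla4, receptors for products of the members, were also named outside this rule after their values were seen. So were H2-Ab1, Irf4, Zbtb46, Flt3, Dpp4 and Ccr7, as dendritic cell markers with library values in macrophages. Alternatives covered scaling, the filter on low genes, the pseudocount, thresholds and single libraries. Python 3.11.15, numpy 2.4.6, pandas 2.3.3, scipy 1.17.1, numba 0.67.0 and matplotlib 3.10.9 were used.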

Additional observations from a re-analysis of the deposited data

Results flagged for a closer look

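In 18 groups of 4 library values (a member in a cell type), 2 had a library standing far from the others, and chance alone marks about 1 in 20 such groups. Macrophage library d held 851.3 normalised reads of Cd86, where the other macrophage libraries held between 222.1 and 309.9. The gap to its nearest neighbour was 0.861 of the whole range. Dendritic cell library c held 1317 normalised reads of Tnfsf4, where the other dendritic cell libraries held between 665.6 and 738, a gap of 0.889 of the range.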

How the results depend on the processing

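No paired analysis was possible because the table has no column per library and the recovered libraries carry no replicate number. The tests on counts and size factors by other tools were not run for the same reason. Of 48 recomputed counts of members, 44 stayed within 1.5 times of the reported one. Osteoclasts against macrophages had 0 members higher with at least a 2-fold change and 2 lower at an adjusted p under 0.01. Osteoclasts against dendritic cells had 1 higher with totals made equal and 1 with only genes of a mean of at least 10. No member fold change turned its direction under another scaling, which shifts all genes alike. A filter or threshold leaves the fold change as it is, and a pseudocount cannot turn it. Those settings therefore say nothing about direction. With single libraries left out, ratios that were not called turned for Cd86 and Tnfsf4 (values above) and for Cd40 in osteoclasts over dendritic cells, at a log2 ratio of 0.08 without dendritic cell library a where all libraries gave −0.42. Besides the lost calls given above, Tnfsf9 against macrophages in osteoclasts was lost at an adjusted p under 0.01 (−0.76), and Cd80 (0.77 against macrophages and −0.94 against dendritic cells), Tnfsf9 and Icosl (0.44) in those comparisons lie under 2-fold. Making totals equal shifted all fold changes by 0.05 for osteoclasts over macrophages, −0.15 for dendritic cells over macrophages and 0.19 for osteoclasts over dendritic cells.

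Of 336 recomputed list counts, 20 moved by over 1.5 times. For osteoclasts against macrophages, a 2-fold minimum gave 0 higher and 0 lower for the other B7 ligands, 2 lower for the other TNF superfamily ligands, 1 lower for adhesion ligands and 1 lower for surface turnover. Upper-quartile scaling gave 2 lower for the other B7 ligands and 2 lower for the receptors, and an adjusted p under 0.01 gave 2 lower for the other TNF superfamily ligands. For dendritic cells against macrophages, other B7 ligands and receptors each had 1 lower with genes of a mean of at least 10 and at an adjusted p under 0.01. A 2-fold minimum there gave 1 lower for the other B7 ligands, 0 lower for adhesion ligands, 6 higher for CD40 signalling and 0 lower for surface turnover. For osteoclasts against dendritic cells, totals made equal gave 2 higher for the other B7 ligands, and a 2-fold minimum gave 0 lower for them and 3 higher and 1 lower for CD40 signalling. The cause was not tested beyond what each setting does by construction. Library values are missing where means are high, so most dendritic cell values rest on the authors' test alone.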
